A study of Mus musculus with 6 samples.

Results

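The genes described here encode the nuclear pore and the carriers that pass through it. They were chosen by symbol: every gene whose symbol starts with Nup followed by a digit, or with Ipo, Xpo, Kpna, Kpnb or Tnpo. The rule found 43 of the 19938 genes tested, of which 20 are nucleoporins and 23 are transport receptors. Nuclear pores are large protein channels in the nuclear envelope. Importins carry proteins with a nuclear localisation signal inward, exportins carry proteins and RNAs outward, and the small GTPase Ran, bound to GTP inside the nucleus, sets the direction of both. When a resting T cell is activated it enlarges its nucleus and makes ribosomes, whose proteins are imported and whose assembled subunits are exported through the pores.

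Expression was measured with Affymetrix arrays in BDC2.5 CD4 T cells, which carry 1 transgenic T cell receptor for a pancreatic islet antigen, after their transfer into NOD mice, a strain that develops autoimmune diabetes. All recipients were female NOD mice aged 7 weeks, and the T cells were taken from the spleen as Thy1.1+CD4+ cells 14 h after injection. The 3 groups of 2 arrays had received 100 ng of anti-DCIR2-BDC, 100 ng of anti-DEC205-BDC, or PBS, and are called DCIR2, DEC205 and PBS here. Both antibodies carry the BDC antigen, to DCIR2+ dendritic cells with the one and to DEC205+ dendritic cells with the other. No group used here received an antibody without antigen, so effects of antigen and of antibody cannot be told apart. The labels speak of biological duplicates without giving the number of mice behind an array, so the p-values measure the spread between these samples, which may be technical.

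The values are log2 expression per probe set after RMA, and each gene is represented by 1 probe set. A change of 1 on this scale is 2-fold. Levels of different genes come from different probes and are not compared. The arrays of a group correlated at r = 0.982 (DCIR2), 0.974 (DEC205) and 0.974 (PBS) over all 35556 probe sets. DEC205 array 2 was closer to DCIR2 arrays 1 and 2, at r = 0.979 and 0.980, than to DEC205 array 1. DEC205 array 1 had r = 0.971 with each DCIR2 array. The T cell label was looked at with 10 measured T cell markers, whose mean level per array was 9.95 to 10.6. The means of 8 lists of markers of other spleen cells were 4.52 to 6.03. Probe affinity differs between these lists, so the levels are a description and not a test of the label. The summed linear level of the T cell markers was 11687 and 11809 in the DCIR2 arrays, 15734 and 14664 in the DEC205 arrays, and 18440 and 19415 in the PBS arrays. Of the 10, 6 passed as lower and 1, Zap70, as higher in DCIR2 against PBS, and 0 as lower and 1, again Zap70, as higher in DEC205 against PBS. Over all genes, 7.82% passed as lower and 10.1% as higher in DCIR2, and 3.53% and 5.32% in DEC205. The lower level of T cell markers ran alongside the changes in transport genes, and its part in them was not tested. Of 39 measured markers of other cells, Eomes passed as higher in both comparisons with PBS and Cd14 as lower in DEC205 against PBS. When single arrays were left out, the calls of Zap70 and Cd14 in DEC205 and of Eomes and Cd4 in DCIR2 did not all hold (adjusted p up to 0.0566, 0.177, 0.177 and 0.115). In such bulk samples, fewer cells of a type and less RNA per cell cannot be told apart.

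Both antigen-bearing antibodies were followed by higher levels of many pore and transport genes. In DCIR2 against PBS, 29 of the 43 genes rose and 0 fell at an adjusted p of 0.05 (limma, Benjamini-Hochberg over all genes). In that comparison 10.1% of all genes passed as higher, 7.82% as lower and 17.9% in either direction. At an unadjusted p of 0.05, 34 of the 43 passed, all of them higher, where 28.1% of all genes passed in either direction and 14.4% as higher. In DEC205 against PBS, 16 of the 43 rose and 0 fell, where 5.32% of all genes passed as higher, 3.53% as lower and 8.84% in either direction. At an unadjusted p of 0.05, 23 passed as higher and 1, Nup210, as lower, where 20.7% of all genes passed in either direction and 10.7% as higher. The median log2 change of the 43 genes was 0.86 in DCIR2 against PBS, where that of all genes was -0.05. It was 0.48 in DEC205 against PBS, where that of all genes was -0.03. The 29 rises in DCIR2 ran from 1.53-fold to 6.43-fold, with 18 of at least 2-fold, and the 16 in DEC205 from 1.70-fold to 4.29-fold, with 12 of at least 2-fold. Both comparisons use the same PBS arrays. The DCIR2 count fell to 18 without DCIR2 array 2.

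The shift was also visible array by array. The median level of the 43 genes was 8.39 and 8.69 in DCIR2 arrays 1 and 2, 7.97 and 7.98 in the DEC205 arrays, and 7.44 and 7.43 in the PBS arrays. Both DCIR2 arrays lay above both DEC205 arrays, and both of those lay above PBS. Gene by gene, both DCIR2 arrays lay above both PBS arrays in 38 of 43 genes, and below them in 0. Over all genes the shares were 23.4% above and 31.9% below. Both DEC205 arrays lay above both PBS arrays in 29 of 43 genes and below them in 2, Nup210 and Nup62cl, against 22.2% above and 26.5% below over all genes.

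**Figure D1:**
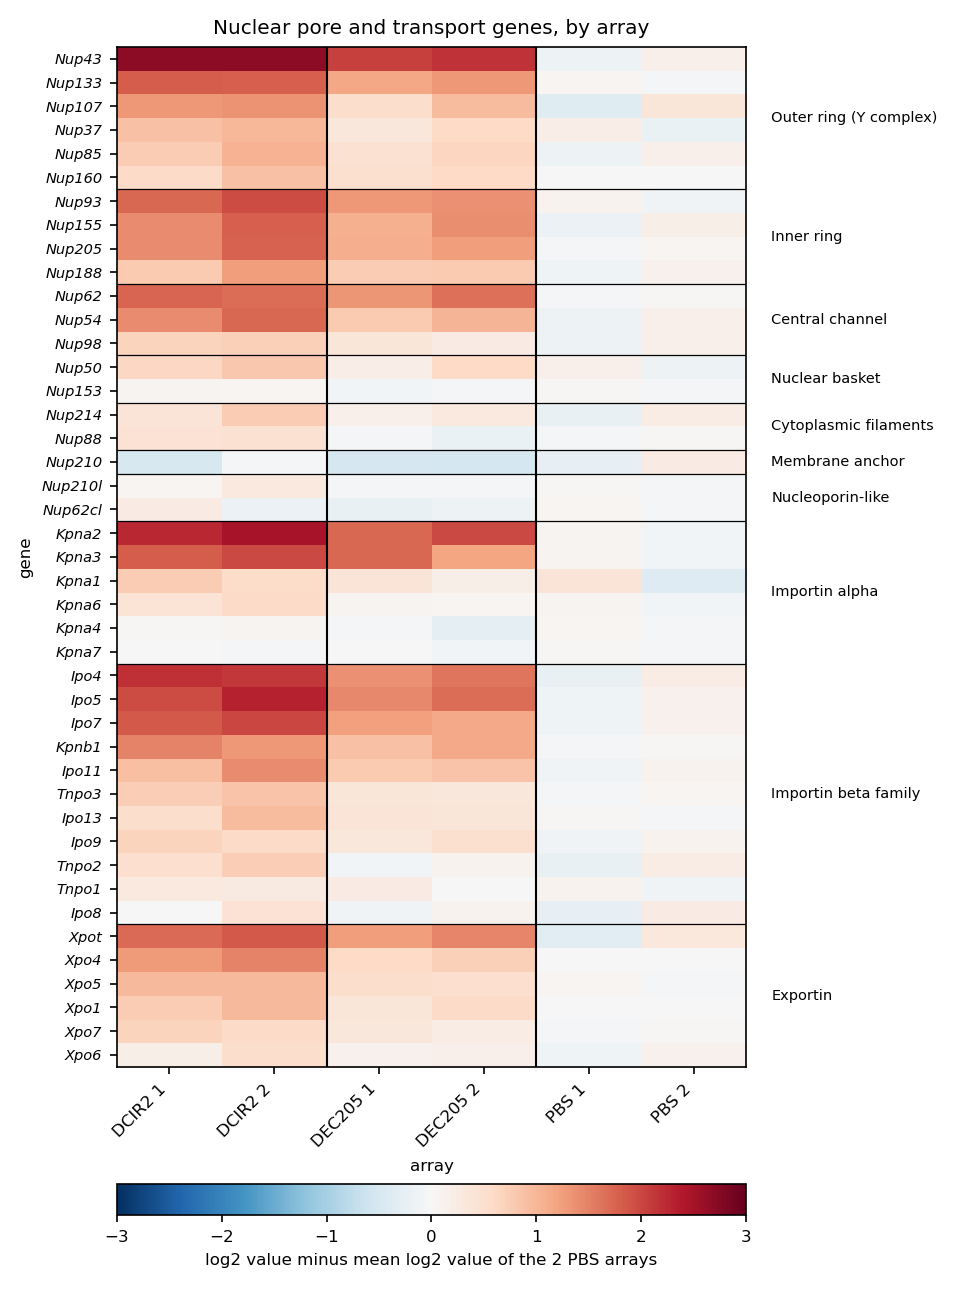
Level of each of the 43 genes on each array, as log2 expression minus the gene's mean over the 2 PBS arrays (colour), in columns for the DCIR2, DEC205 and PBS arrays and in rows grouped by role. Nup43, Kpna2, Ipo4 and Ipo5 have the deepest red in the DCIR2 columns, while Nup153, Kpna4, Kpna7 and Ipo8 show little contrast.

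The outer ring, or Y complex, forms the scaffold on both faces of the pore. All 6 of its genes among the 43 rose in DCIR2 against PBS, while 2 of the 6 rose in DEC205 against PBS. The largest change of the complex was that of Nup43, a small propeller protein in it. Nup43 (chromosome 10, 7667504 to 7678886, GRCm38.p6) had 8.49 and 8.48 in the DCIR2 arrays, 7.84 and 7.96 in the DEC205 arrays, and 5.63 and 5.96 in the PBS arrays. The 3 groups did not overlap, and the 4 antigen arrays stood well above PBS. The log2 change was 2.69 ± 0.19 (SE) in DCIR2 (adjusted p = 3.93e-05) and 2.10 ± 0.19 in DEC205 (adjusted p = 0.000512), the largest of the 43 genes in both comparisons. Nup133, which sits at the tip of the Y and binds the curved envelope membrane, had 8.14 and 8.12 in DCIR2, 7.48 and 7.63 in DEC205, and 6.38 and 6.26 in PBS. Again the groups were separate, with log2 changes of 1.81 ± 0.18 in DCIR2 (adjusted p = 0.00013) and 1.23 ± 0.18 in DEC205 (adjusted p = 0.00297).

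The other 4 genes of the Y complex passed in DCIR2 and not in DEC205 against PBS, but none of them passed in DCIR2 against DEC205. Nup107, the partner of Nup133, had 7.76 and 7.80 in DCIR2, 6.98 and 7.39 in DEC205, and 6.07 and 6.82 in PBS. Its PBS arrays lay far apart. Its log2 change was 1.33 in DCIR2 (adjusted p = 0.00467), and 0.74 in DEC205 with a 95% interval of 0.16 to 1.31 (adjusted p = 0.121, 0.0319 to 0.55 over the alternatives), which was the largest change that did not pass in that comparison. Nup37, Nup85 and Nup160, further subunits of the Y, rose by 0.94, 0.91 and 0.73 in DCIR2 on the log2 scale. Their DEC205 changes of 0.47, 0.56 and 0.54 did not pass. The DCIR2 calls of these 3 genes were lost without DCIR2 array 2, at adjusted p = 0.0761 for Nup37, 0.107 for Nup85 and 0.17 for Nup160. They were also lost without PBS array 1 for Nup85 (0.075) and Nup160 (0.0787), and without PBS array 2 for Nup37 (0.0653) and Nup160 (0.0691). Over the alternatives the adjusted p ran from 0.00507 to 0.0761 for Nup37, 0.00463 to 0.107 for Nup85, and 0.00853 to 0.17 for Nup160.

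All 4 measured inner ring genes rose in both comparisons with PBS. The inner ring lines the wall of the channel and holds the FG nucleoporins in place. Nup93, its linker protein, had 8.21 and 8.44 in DCIR2, 7.78 and 7.85 in DEC205, and 6.60 and 6.38 in PBS. The 3 groups were separate, with log2 changes of 1.84 ± 0.19 in DCIR2 (adjusted p = 0.000143) and 1.33 ± 0.19 in DEC205 (adjusted p = 0.00271). Nup205, a large solenoid protein that binds Nup93, had 8.11 and 8.46 in DCIR2, 7.78 and 7.96 in DEC205, and 6.64 and 6.75 in PBS, with changes of 1.59 and 1.17. Nup155, which contacts the membrane, changed by 1.60 and 1.22, and Nup188, the relative of Nup205, by 1.02 and 0.77, in DCIR2 and DEC205 against PBS. The DEC205 call of Nup155 was lost without DEC205 array 2 (adjusted p = 0.0548) and without PBS array 1 (0.0522), in a range of 0.00265 to 0.0548. That of Nup188 (adjusted p = 0.0469) was lost without any 1 of the 6 arrays, at 0.0534 and 0.054 without DCIR2 arrays 1 and 2, 0.138 and 0.16 without DEC205 arrays 1 and 2, and 0.206 and 0.0755 without PBS arrays 1 and 2, and also with every probe set tested (0.0515) and with only the 4 arrays compared (0.0541), in a range of 0.0199 to 0.206. The DCIR2 call of Nup188 was lost without DCIR2 array 2 (0.0769, range 0.00221 to 0.0769).

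The central channel is filled by FG nucleoporins, whose phenylalanine-glycine repeats bind the carriers. All 3 of these genes chosen by symbol rose in DCIR2, and 2 of 3 in DEC205. Nup62 had 9.66 and 9.58 in DCIR2, 9.24 and 9.56 in DEC205, and 7.88 and 7.93 in PBS. Unlike in Nup43, its DCIR2 and DEC205 arrays lay close to each other, and the changes against PBS were 3.28-fold in DCIR2 (adjusted p = 0.000137) and 2.82-fold in DEC205 (adjusted p = 0.00105). Its partner Nup54 had 8.37 and 8.69 in DCIR2, 7.75 and 7.98 in DEC205, and 6.82 and 7.10 in PBS, with changes of 1.57 and 0.90. The DEC205 call of Nup54 (adjusted p = 0.0232) was lost without DEC205 array 2 (0.131) and without PBS array 1 (0.127), in a range of 0.00967 to 0.131. Nup98, whose gene also encodes the Y complex subunit Nup96, changed by 0.69 in DCIR2 (adjusted p = 0.0232) and had 0.30 in DEC205 (adjusted p = 0.406). The DCIR2 call of Nup98 was lost without DCIR2 array 1 (0.0994), DCIR2 array 2 (0.126) or PBS array 1 (0.145), and with quantile normalization (0.0594), in a range of 0.00925 to 0.145.

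Of the 4 genes of the nuclear basket and the cytoplasmic filaments chosen by symbol, 1 passed in DCIR2 and 0 in DEC205 against PBS. In the basket, Nup50, which helps to release imported cargo, had 8.72 and 8.90 in DCIR2, 8.29 and 8.69 in DEC205, and 8.25 and 7.95 in PBS. It passed in DCIR2 with a log2 change of 0.71 ± 0.21 (adjusted p = 0.0373), and had 0.40 in DEC205 (adjusted p = 0.321). The DCIR2 call was lost without DCIR2 array 1 (0.101), DCIR2 array 2 (0.217) or PBS array 2 (0.189), and with quantile normalization (0.085), in a range of 0.0157 to 0.217. Nup153, another basket protein, had 9.73 and 9.72 in DCIR2, 9.57 and 9.63 in DEC205, and 9.69 and 9.61 in PBS. The 6 arrays lay within a narrow band, with 95% intervals of -0.26 to 0.39 for DCIR2 and -0.38 to 0.27 for DEC205 against PBS. Neither gene of the cytoplasmic filaments chosen by symbol passed in either comparison. Nup214 had log2 changes of 0.58 in DCIR2 (adjusted p = 0.0966) and 0.22 in DEC205, and its binding partner Nup88 had 0.44 (adjusted p = 0.138) and -0.12. Ranbp2 and Nupl2, filament genes outside the symbol rule, had 0.44 and 0.62 in DCIR2 (adjusted p = 0.158 and 0.122). In DEC205 they had 0.19 and 0.16, and neither passed in either comparison.

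The membrane anchor Nup210, a transmembrane nucleoporin that naive CD4 T cells of mice need for their survival in the periphery, had the lowest differences from PBS of the 43 genes. It had 8.99 and 9.43 in DCIR2, 8.95 and 8.94 in DEC205, and 9.21 and 9.71 in PBS. Its DEC205 arrays lay below both PBS arrays, while the DCIR2 arrays overlapped with PBS. The log2 difference was -0.51 in DEC205 with an interval of -0.99 to -0.04 (adjusted p = 0.2), and -0.25 in DCIR2 with an interval of -0.72 to 0.23 (adjusted p = 0.526), so neither passed. The nucleoporin-like genes Nup210l and Nup62cl had dim signals of 5.58 to 5.90 and 3.47 to 3.93 and did not pass in either comparison.

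**Figure D2:**
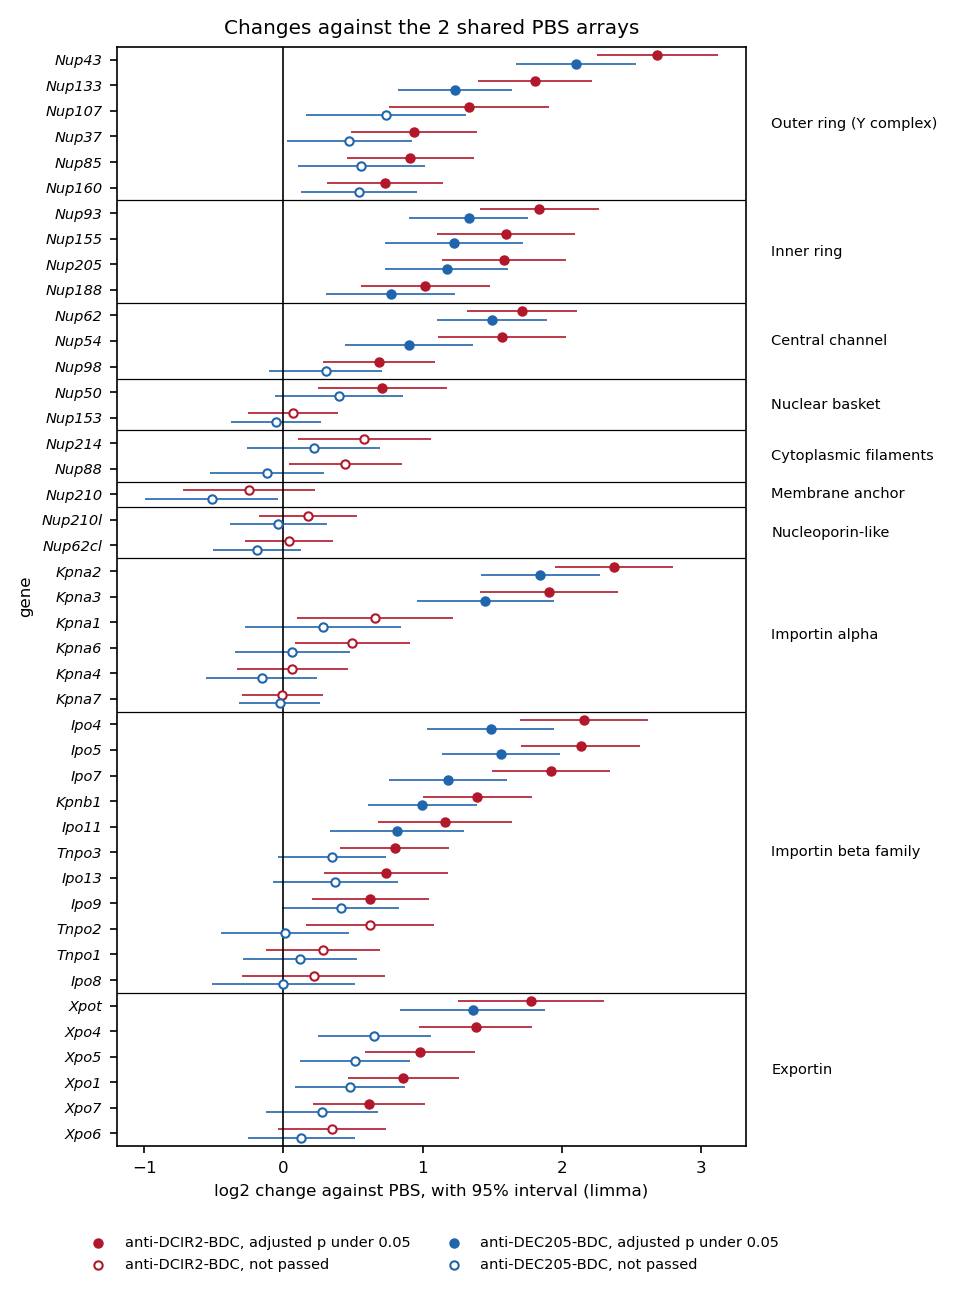
Log2 change of each of the 43 genes in DCIR2 against PBS and in DEC205 against PBS, with 95% intervals from limma, grouped by role; filled points passed an adjusted p of 0.05. The largest changes are those of Nup43, at 2.69 and 2.10, and Nup210 is the gene with the lowest values, at -0.25 and -0.51.

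Among the transport receptors, 15 of 23 rose in DCIR2 and 8 of 23 in DEC205 against PBS, with median log2 changes of 0.80 and 0.41. For the nucleoporins the counts were 14 and 8 of 20, with medians of 0.92 and 0.55. The importin alpha proteins are adaptors that bind the classical nuclear localisation signal and hand the cargo to importin beta. Of their 6 measured genes, 2 rose in DCIR2 and 2 in DEC205 against PBS, Kpna2 and Kpna3 in each case. Kpna2, the importin alpha best known from dividing cells, had 9.12 and 9.33 in DCIR2, 8.57 and 8.82 in DEC205, and 6.93 and 6.77 in PBS. The groups were separate, with log2 changes of 2.37 ± 0.19 in DCIR2 (adjusted p = 5.14e-05) and 1.84 ± 0.19 in DEC205 (adjusted p = 0.000732). Kpna2 has 3 probe sets and RefSeq annotates a pseudogene copy, so signal from the copy is not separated here. The 3 probe sets gave changes of 2.29 to 2.39 in DCIR2 and 1.84 to 1.89 in DEC205. Kpna3 had 8.39 and 8.56 in DCIR2, 8.29 and 7.74 in DEC205, and 6.65 and 6.48 in PBS. Its DEC205 arrays lay further apart than those of the other groups, and the changes were 1.91 ± 0.22 in DCIR2 (adjusted p = 0.000254) and 1.45 ± 0.22 in DEC205 (adjusted p = 0.00343).

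The other 4 importin alpha genes did not pass. Kpna4, a close relative of Kpna3, had 8.65 and 8.71 in DCIR2, 8.59 and 8.33 in DEC205, and 8.67 and 8.57 in PBS, with 95% intervals of -0.34 to 0.46 for DCIR2 and -0.56 to 0.24 for DEC205. Its PBS arrays overlapped with both antibody groups, unlike those of Kpna3. Kpna1 had the largest change in DCIR2 that did not pass, 0.66 (adjusted p = 0.109, 0.0186 to 0.548 over the alternatives), and its PBS arrays stood apart at 7.75 and 7.00. Kpna6 had 0.49 in DCIR2 (adjusted p = 0.102) and 0.06 in DEC205. Kpna7, known as the importin alpha of oocytes and early embryos, was dim at 4.78 to 4.89 on all 6 arrays.

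Of the 11 importin beta family genes, 8 rose in DCIR2 and 5 in DEC205 against PBS. These carriers bind cargo directly, and several bring ribosomal proteins and histones into the nucleus. Ipo4, a carrier of histones and ribosomal proteins, had 9.49 and 9.41 in DCIR2, 8.66 and 8.90 in DEC205, and 7.06 and 7.53 in PBS. The groups did not overlap, with log2 changes of 2.16 ± 0.21 in DCIR2 (adjusted p = 9.77e-05) and 1.49 ± 0.21 in DEC205 (adjusted p = 0.0022). Ipo5, which shares part of that cargo, had 9.84 and 10.20 in DCIR2, 9.33 and 9.57 in DEC205, and 7.76 and 8.01 in PBS, with changes of 2.14 ± 0.19 (adjusted p = 7.53e-05) and 1.56 ± 0.19 (adjusted p = 0.00131). Ipo7, which imports ribosomal proteins and histone H1, had 8.53 and 8.69 in DCIR2, 7.91 and 7.83 in DEC205, and 6.56 and 6.81 in PBS. Its groups did not overlap, with changes of 1.92 ± 0.19 in DCIR2 (adjusted p = 0.000118) and 1.18 ± 0.19 in DEC205 (adjusted p = 0.00447). Its close relative Ipo8 had 7.43 and 7.85 in DCIR2, 7.31 and 7.53 in DEC205, and 7.18 and 7.66 in PBS. The groups of Ipo8 overlapped, and its intervals were -0.30 to 0.73 for DCIR2 and -0.52 to 0.52 for DEC205.

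Kpnb1, or importin beta, the partner of the importin alpha adaptors, had 9.67 and 9.48 in DCIR2, 9.05 and 9.31 in DEC205, and 8.15 and 8.22 in PBS. It rose by 1.39 on the log2 scale in DCIR2 (adjusted p = 0.000396), and its rise in DEC205 had a 95% interval of 0.61 to 1.39 (adjusted p = 0.00686). Ipo11 changed by 1.16 in DCIR2 (adjusted p = 0.00382) and by 0.82 in DEC205 (adjusted p = 0.0435). Ipo13, which carries cargo in both directions, Ipo9, a histone carrier, and Tnpo3, which imports SR splicing factors, rose in DCIR2 by 0.74, 0.63 and 0.80. In DEC205 they had 0.37, 0.41 and 0.35 and did not pass. Tnpo1 and Tnpo2, the transportins that import hnRNP proteins, had 0.28 and 0.62 in DCIR2 (adjusted p = 0.377 and 0.0668) and 0.12 and 0.01 in DEC205. The DEC205 call of Kpnb1 was lost without DEC205 array 2 (0.055, range 0.00211 to 0.055). That of Ipo11 was lost without DEC205 array 1 (0.115) or 2 (0.156) and without PBS array 1 (0.192) or 2 (0.0806), in a range of 0.0223 to 0.192. In DCIR2, the call of Tnpo3 was lost without DCIR2 array 2 (0.0786) or PBS array 1 (0.0544), in a range of 0.00328 to 0.0786. The call of Ipo13 was lost without DCIR2 array 2 (0.221), PBS array 1 (0.076) or PBS array 2 (0.108), in a range of 0.0157 to 0.221. The call of Ipo9 (adjusted p = 0.0432) was lost without any 1 of the 6 arrays, at 0.198 and 0.137 without DCIR2 arrays 1 and 2, 0.0547 and 0.0544 without DEC205 arrays 1 and 2, and 0.204 and 0.0637 without PBS arrays 1 and 2, and also with quantile normalization (0.0536) and with only the 4 arrays compared (0.0544), in a range of 0.0186 to 0.204.

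Promoter sequences from RefSeq (GRCm38.p6) are shown for the 3 genes with the largest rises in DCIR2 that have an entry, Kpna2, Ipo4 and Ipo5, since they rose together. Each is the 250 bases before a listed start, given 5′ to 3′ on the gene's strand, with matches to 4 motifs in capitals. The motifs, searched on both strands, were the E-box CACGTG, which MYC and related factors bind, the CCAAT box (CCAAT), the ETS site CCGGAAG and the GC box GGGCGG. Kpna2 lies at chr11:106999526-106999775 on the minus strand, Ipo4 at chr14:55635685-55635934 on the minus strand, and Ipo5, with the more upstream of its 2 listed starts, at chr14:120910944-120911193 on the plus strand. The Ipo5 window lies inside the gene as annotated, which spans 120896840 to 120948046. Most of the Ipo4 window lies inside its gene, which spans 55625400 to 55635868.
Kpna2: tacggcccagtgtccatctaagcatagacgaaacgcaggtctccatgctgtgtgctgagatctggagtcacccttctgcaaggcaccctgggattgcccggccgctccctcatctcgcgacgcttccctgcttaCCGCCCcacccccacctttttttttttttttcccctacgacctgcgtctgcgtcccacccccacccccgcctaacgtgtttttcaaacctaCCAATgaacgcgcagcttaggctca
Ipo4: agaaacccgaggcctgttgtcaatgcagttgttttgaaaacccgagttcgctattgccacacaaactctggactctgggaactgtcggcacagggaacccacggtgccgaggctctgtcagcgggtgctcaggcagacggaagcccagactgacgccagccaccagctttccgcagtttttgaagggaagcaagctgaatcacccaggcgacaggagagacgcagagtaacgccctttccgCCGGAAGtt
Ipo5: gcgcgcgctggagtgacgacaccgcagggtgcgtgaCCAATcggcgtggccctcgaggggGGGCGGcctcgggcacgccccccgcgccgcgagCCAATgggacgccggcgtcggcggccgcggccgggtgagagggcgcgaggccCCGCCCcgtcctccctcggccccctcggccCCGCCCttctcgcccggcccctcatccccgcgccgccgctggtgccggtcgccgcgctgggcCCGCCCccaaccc

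The Kpna2 window holds a CCAAT box 25 bases and a GC box 116 bases before the start. The Ipo4 window holds an ETS site 9 bases before the start. The Ipo5 window is rich in G and C and holds 4 GC boxes and 2 CCAAT boxes. None of the 3 windows holds CACGTG, which says only that these letters are not in these windows. Over the 42 listed promoters of 35 of the 43 genes, CACGTG was in 14.3%, CCAAT in 21 of 42, CCGGAAG in 16.7% and GGGCGG in 61.9%. Over all 32851 listed promoters of the same length the shares were 6.02%, 33.8%, 6.91% and 32.7%. These shares describe the windows and were not tested, and base composition was not matched. Nup43, Kpna1, Kpna3, Kpna6, Xpo4, Xpo7, Nup85 and Nup210l are named without a promoter.

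Of the 6 exportins chosen by symbol, 5 rose in DCIR2 and 1, Xpot, in DEC205 against PBS. Cse1l, an exporter of importin alpha outside the symbol rule, passed as higher in both comparisons and is given with the other transport genes below. Xpot, or exportin-t, carries mature tRNAs to the cytoplasm. It had 8.09 and 8.23 in DCIR2, 7.63 and 7.86 in DEC205, and 6.06 and 6.70 in PBS. The groups were separate, although the PBS arrays lay apart, and the log2 changes were 1.78 ± 0.24 in DCIR2 (adjusted p = 0.000504) and 1.36 ± 0.24 in DEC205 (adjusted p = 0.00625). Xpo4, the exporter of the translation factor eIF5A, had 8.74 and 8.94 in DCIR2, 8.05 and 8.17 in DEC205, and 7.46 and 7.46 in PBS. It changed by 1.38 in DCIR2 (adjusted p = 0.000504), and its 0.65 in DEC205 just missed the threshold (adjusted p = 0.053). Xpo5, which exports microRNA precursors, changed by 0.98 in DCIR2 (adjusted p = 0.00319) and had 0.52 in DEC205 (adjusted p = 0.115).

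Xpo1, or CRM1, the exporter of proteins with a leucine-rich export signal and of ribosomal subunits, had 9.07 and 9.28 in DCIR2, 8.69 and 8.90 in DEC205, and 8.29 and 8.34 in PBS. The groups did not overlap. Xpo1 changed by 0.86 in DCIR2 (adjusted p = 0.00663) and had 0.48 in DEC205 (adjusted p = 0.148). Xpo7 changed by 0.61 in DCIR2 (adjusted p = 0.0384) and had 0.28 in DEC205. Xpo6, the exporter of actin with profilin, had 0.35 in DCIR2 (adjusted p = 0.226) and 0.13 in DEC205. The DCIR2 call of Xpo1 was lost without DCIR2 array 2 (0.0711, range 0.00226 to 0.0711). That of Xpo7 was lost without any 1 of the 6 arrays, at 0.18 and 0.127 without DCIR2 arrays 1 and 2, 0.0516 and 0.051 without DEC205 arrays 1 and 2, and 0.141 and 0.0958 without PBS arrays 1 and 2, and also with quantile normalization (0.0741) and with only the 4 arrays compared (0.051), in a range of 0.0144 to 0.18.

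**Figure D3:**
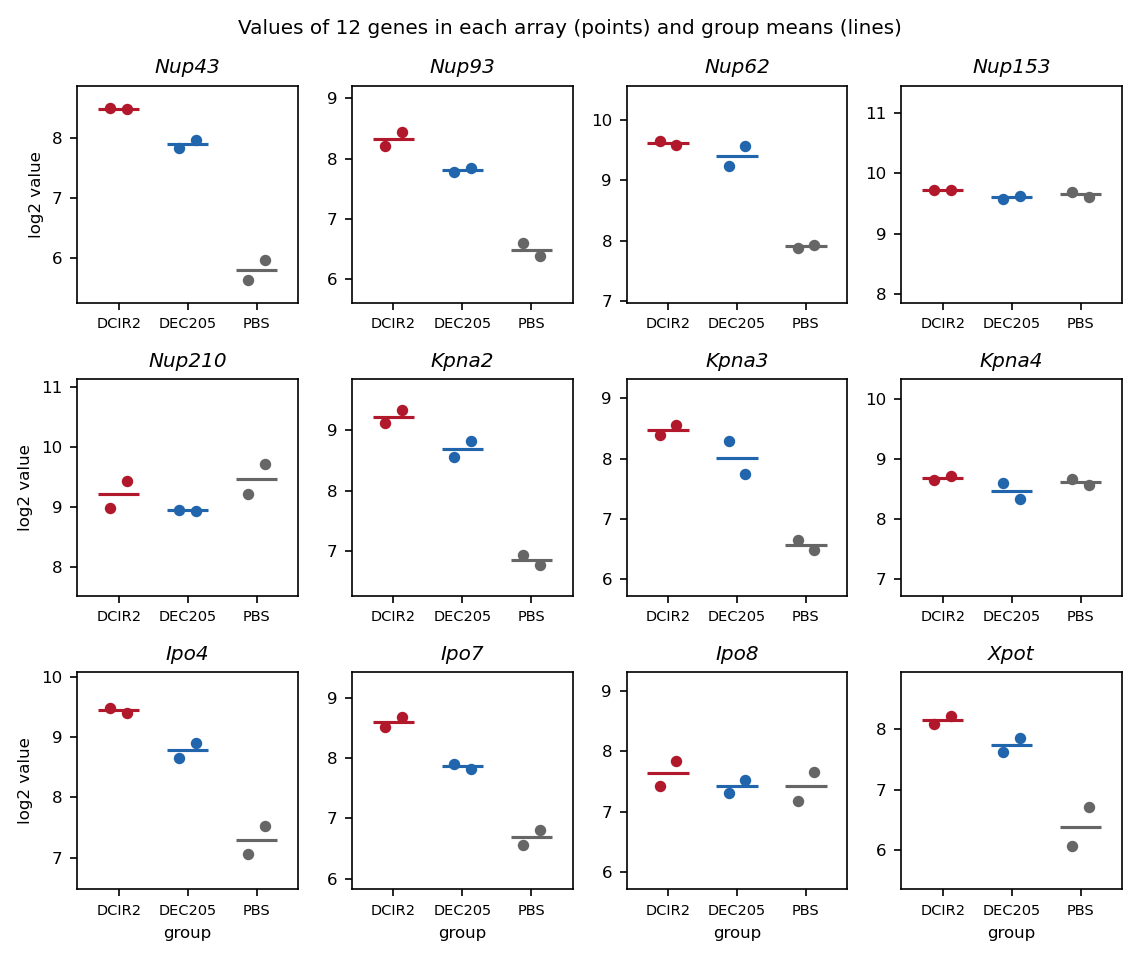
Log2 expression on each array for 12 genes, among them Nup43, Kpna2, Ipo4 and Ipo7, which rose, and Nup153, Nup210, Kpna4 and Ipo8, which did not pass, with DCIR2, DEC205 and PBS from left to right, points for single arrays and a line for the mean of the 2 arrays. In Nup43 the PBS arrays lie at 5.63 and 5.96 and all 4 antigen arrays at 7.84 or above.

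Setting the antibodies directly against each other, 0 of the 43 genes passed an adjusted p of 0.05 in DCIR2 against DEC205 (limma), where 0.0201% of all genes passed, all of them higher in DCIR2. At an unadjusted p of 0.05, 17 of the 43 passed, all higher in DCIR2, where 10.2% of all genes passed in either direction. All 43 genes had a positive difference, with a median of 0.38 and a range of 0.02 to 0.74 on the log2 scale. The median over all genes was -0.01. Both DCIR2 arrays lay above both DEC205 arrays in 39 genes, where the share over all genes was 19.3%. In the 4 pairs of 1 DCIR2 with 1 DEC205 array, the median difference of the 43 genes was 0.38, 0.29, 0.53 and 0.46, and 41 to 43 genes were higher in the DCIR2 array. Arrays of a group also differed by a shared amount: array 2 minus array 1 had a median over the 43 genes of 0.16 in DCIR2, 0.12 in DEC205 and 0.07 in PBS. Genes measured on the same arrays are not separate measurements of a difference between the antibodies.

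The largest single difference was that of Ipo7, at 0.74 with a 95% interval of 0.32 to 1.17 (adjusted p = 0.236, 0.126 to 0.681 over the alternatives), or 1.67-fold. Xpo4 had 0.73 with an interval of 0.32 to 1.13 (adjusted p = 0.225, the lowest of the 43), and Ipo4 and Nup54 each had 0.67. The interval of a gene reached 0.43 to either side at the median, so single differences of the median size were within the error of this design. Nup43 had 0.58 with an interval of 0.15 to 1.02, and Kpna2 had 0.53 with 0.10 to 0.96. Nup62 had 0.22 with -0.18 to 0.61, and Nup155, which had nearly the same change as Nup62 in DCIR2 against PBS, had 0.38 with -0.12 to 0.87. Tnpo2 and Nup88 had 0.61 and 0.56, with intervals of 0.15 to 1.07 and 0.16 to 0.97, while their DEC205 values against PBS were 0.01 and -0.12. For no gene did these intervals show equal levels after both antibodies: the highest upper bound was 1.17 and the lowest 0.31.

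**Figure D4:**
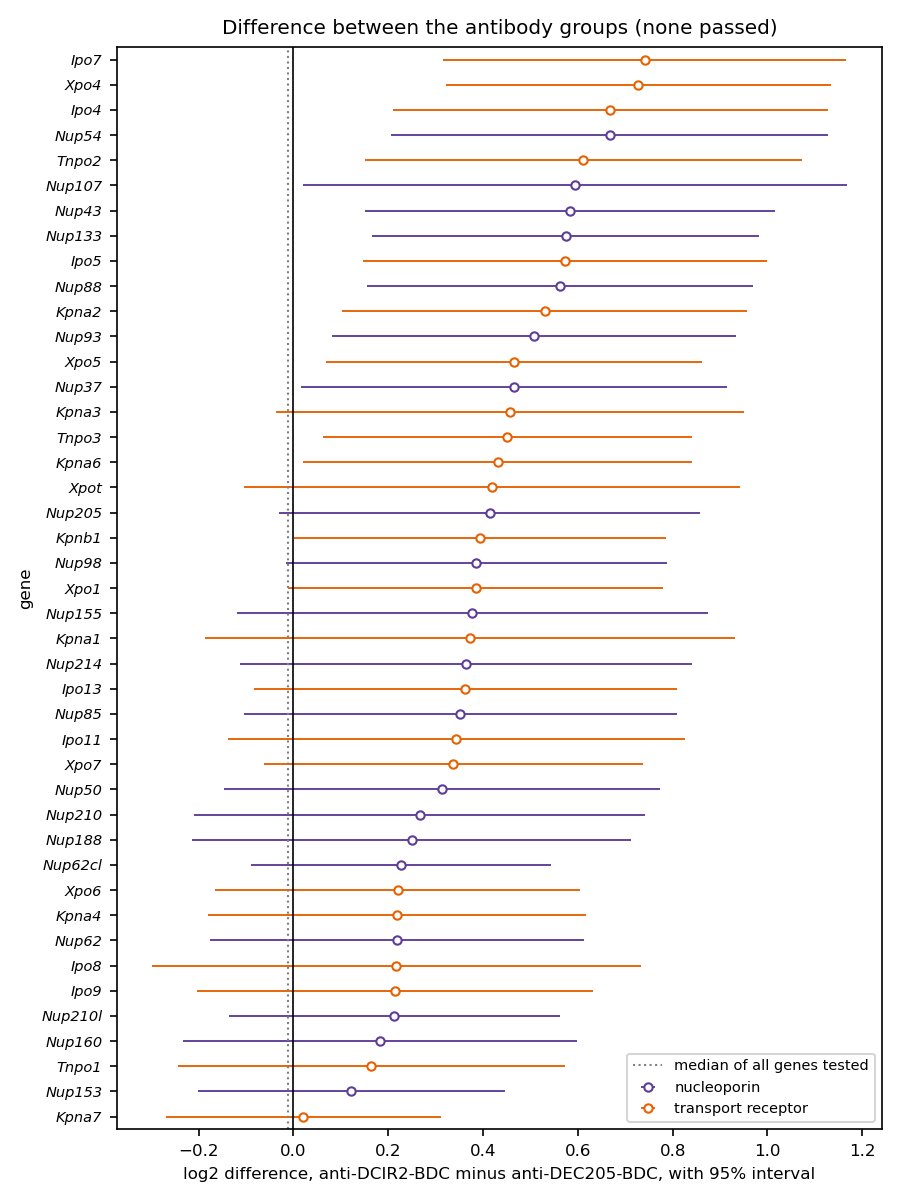
Log2 difference of each of the 43 genes in DCIR2 against DEC205 with 95% intervals from limma, in order of size, coloured as nucleoporin or transport receptor, with a dotted line at the median of all genes. All 43 points lie above 0, the intervals of 17 lie wholly above 0, and none passed an adjusted p of 0.05.

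Other genes of nuclear transport, outside the symbol rule, were followed in 6 lists holding 67 genes, of which 60 were measured. In DCIR2 against PBS, 26 rose and 5 fell, where 10.1% of all genes passed as higher and 7.82% as lower. In DEC205 against PBS, 13 rose and 4 fell, where the shares were 5.32% and 3.53%. The median log2 changes of the 60 genes were 0.63 and 0.33, where those of all genes were -0.05 and -0.03. Of 9 measured genes of the Ran cycle, 6 rose and 1 fell in DCIR2, and 5 rose and 1 fell in DEC205. Ran itself had 10.34 and 10.73 in DCIR2, 10.03 and 10.19 in DEC205, and 8.46 and 8.81 in PBS. Its groups of antigen arrays lay above PBS without overlap, with log2 changes of 1.90 in DCIR2 (adjusted p = 0.000111) and 1.47 in DEC205 (adjusted p = 0.00145). Ranbp1, which helps to take Ran-GTP off export complexes, changed by 1.94 and 1.60, and Rangrf, the mammalian Mog1, by 2.14 and 1.44. Rcc1, the chromatin-bound exchange factor that loads Ran with GTP, had 8.12 and 8.47 in DCIR2, 7.19 and 7.53 in DEC205, and 6.08 and 6.37 in PBS, with changes of 2.07 and 1.14. Ranbp10, a scaffold protein that binds Ran, fell by 0.94 on the log2 scale in DCIR2 (adjusted p = 0.00464) and by 0.90 in DEC205 (adjusted p = 0.0127).

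Of 11 measured pore components with other names, 7 rose in DCIR2 and 2 in DEC205, and none fell in either. Pom121, a membrane anchor of the pore, changed by 1.47 in DCIR2 and 1.05 in DEC205, and Ndc1, another, by 1.41 in DCIR2. Aaas (aladin) and Rae1, an mRNA export factor, changed by 1.20 and 1.07 in DCIR2. Of 8 receptors and adaptors outside the rule, 5 rose in DCIR2 and 2 in DEC205. Cse1l, which returns importin alpha to the cytoplasm, had 10.20 and 10.41 in DCIR2, 9.82 and 9.92 in DEC205, and 9.13 and 9.23 in PBS, with log2 changes of 1.12 and 0.69. Ltv1, an assembly and export factor of the small ribosomal subunit, changed by 2.03 and 1.23. Nmd3, the export adaptor of the large subunit, and Snupn, which imports spliceosomal snRNPs, changed by 1.14 and 1.41 in DCIR2. Of 14 measured mRNA export genes, 2 rose in DCIR2, Thoc5 at 1.49 and Alyref at 1.03, and 1, Alyref, in DEC205 at 0.68, counts near the shares over all genes. The median log2 changes of the 14 were 0.48 in DCIR2 and 0.31 in DEC205, where those of all genes were -0.05 and -0.03. At an unadjusted p of 0.05 (limma), 10 of the 14 passed in DCIR2 and 3 in DEC205. Over all genes 28.1% and 20.7% did so in either direction.

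Of 7 measured SUMO genes, 3 rose and 1 fell in DCIR2, and 2 rose and 1 fell in DEC205. Sae1, part of the SUMO activating enzyme, and Sumo2 changed by 0.96 and 0.76 in DCIR2 and by 0.82 and 0.66 in DEC205, and Senp1, a SUMO protease, by 0.62 in DCIR2. The ligase Pias1 fell by 0.84 in DCIR2 and by 0.89 in DEC205. The lamina and envelope list held calls in both directions: of 11 genes, 3 rose and 3 fell in DCIR2, and 1 rose and 2 fell in DEC205. For both lists, the shares over all genes were 10.1% higher and 7.82% lower in DCIR2, and 5.32% and 3.53% in DEC205. Banf1, which bridges chromatin and envelope, had 10.00 and 10.07 in DCIR2, 9.70 and 9.93 in DEC205, and 8.61 and 8.65 in PBS, with changes of 1.40 and 1.19. Lmnb1 (lamin B1) changed by 1.29 in DCIR2. Lbr, the lamin B receptor, had 7.47 and 7.70 in DCIR2, 7.93 and 8.05 in DEC205, and 8.90 and 8.96 in PBS, and Sun2, which links the lamina to the cytoskeleton, had 6.67 and 7.07 in DCIR2, 7.57 and 7.65 in DEC205, and 8.41 and 8.38 in PBS. Both lay lower in the antigen groups with no overlap, with changes of -1.34 and -1.52 in DCIR2 and -0.94 and -0.78 in DEC205. In DCIR2 against DEC205, 0 of the 60 genes passed (limma), where 0.0201% of all genes did. At an unadjusted p of 0.05, 19 were higher and 1, Sun2 at -0.74, was lower, where 10.2% of all genes passed in either direction.

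The 17 calls among these genes in DEC205 became 10 without DEC205 array 1, 9 without DEC205 array 2 and 8 without PBS array 1, and the 4 falls became 1 without any 1 of the DEC205 or PBS arrays. The DCIR2 count of 31 became 21 to 34 without single arrays, and its 5 falls became 3 without either DCIR2 array. Ranbp10 lost its DEC205 call without DEC205 array 1 or 2 or PBS array 1 (adjusted p = 0.055, 0.0616 and 0.0661, range 0.00524 to 0.0661) and its DCIR2 call without DCIR2 array 2 (0.0501, range 0.00191 to 0.0501). The DEC205 call of Rcc1 was lost without DEC205 array 2 or PBS array 1 (adjusted p = 0.0657 and 0.062, range 0.00389 to 0.0657). Those of Rae1 and Alyref were lost without any 1 of the 6 arrays (ranges 0.0206 to 0.238 and 0.0176 to 0.172) and with only the 4 arrays compared (0.076 and 0.0755), and that of Alyref also with quantile normalization (0.0551). Also lost were those of Cse1l and Sun2 without any 1 of the DEC205 or PBS arrays (0.00814 to 0.116 and 0.0176 to 0.142), and that of Sun2 under median centring too (0.0668). Sae1 lost its DEC205 call without any 1 array except PBS array 2 and with only the 4 arrays compared (0.0687, range 0.0143 to 0.198), and Sumo2 without DEC205 array 1 or PBS array 1 (0.072 and 0.0669, range 0.00597 to 0.072). Lbr lost it without DEC205 array 1 or PBS array 2 (0.0621 and 0.0524, range 0.00396 to 0.0621), and Pias1 without DEC205 array 2 or either PBS array (0.0632 to 0.116, range 0.00739 to 0.116). In DCIR2, the call of Snupn was lost without DCIR2 array 1 (0.0527, range 0.00171 to 0.0527), that of Pias1 without DCIR2 array 1 or PBS array 1 (0.102 and 0.0522, range 0.00514 to 0.102), and those of Sae1 and Lmnb1 without either DCIR2 array or PBS array 1 (ranges 0.00297 to 0.0645 and 0.00354 to 0.122). That of Senp1 was lost without any 1 of the 6 arrays, with quantile normalization (0.0725) and with only the 4 arrays compared (0.0538), in a range of 0.0177 to 0.199.

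**Figure D5:**
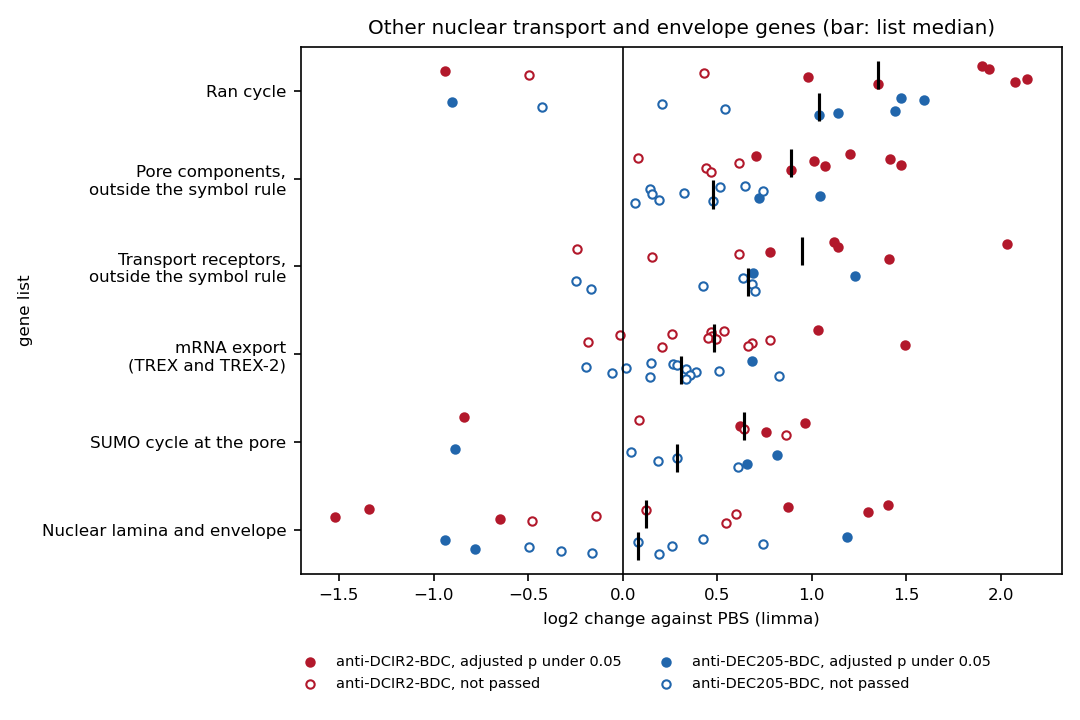
Log2 change in DCIR2 against PBS and in DEC205 against PBS of the measured genes of 6 further lists of nuclear transport, with 1 point per gene, filled where it passed an adjusted p of 0.05, spread vertically for legibility, and a bar at each list's median. The Ran cycle reaches 2.14 with Rangrf, and the lamina and envelope list holds points on both sides of 0, down to -1.52 with Sun2.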

How the data were processed

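The authors deposited 1 column of log2 expression values for each of the 6 arrays. RMA was run in Partek, as the submitters' processing notes and the series' text on its design state, with a version that is not given in the sources used here. Per the labels' protocols, 5 ng of total RNA was amplified and labelled with biotin, which can add noise to dim probe sets. RMA equalises the arrays' probe intensities, which hides any change common to every gene. Although that text mentions averaging, each column holds 1 array.

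The values ran from 2.15 to 13.9 over 35556 probe sets, and 0 were missing. The platform annotation gave 1 symbol to 21789 probe sets, several to 1621 and none to 12146. For each gene, the probe set that named only its symbol and had the highest mean over the 6 arrays was taken. This gave 19938 genes, dim ones included. All 43 genes matched RefSeq by Entrez identifier. RefSeq lists 44 protein-coding genes of the symbol rule, and Nup35 has no probe set that names it alone.

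The fit used limma 3.58.1 under R 4.3.3, on the 6 arrays together, with a coefficient for each group and variances moderated along a trend with expression. Tests were two-sided, and p-values were adjusted over the 19938 genes by the Benjamini-Hochberg method. Precision is limited by the number of arrays. The fit was tested on simulated data that used its own moderated variances, and it recovered the large changes put in. An earlier simulation with each gene's raw spread had recovered fewer of them, so this tests the code and not the power of the design. Equal replicate numbers did not mark a shared mouse or batch in the labels, so they were not used as a block.

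The 43 genes, the 6 lists of other transport genes and the marker lists were chosen with earlier results of these data known. Per comparison, the 8 largest rises and 8 largest falls that passed, the largest passing change of each role and the largest change that did not pass are given in detail, with up to 4 passing genes of each other list. Further genes were picked with their values in view: Nup205, Nup54, Nup153, Nup210, Kpna4, Ipo8, Kpnb1, Xpo4 and Xpo1 among those given per array, and Ranbp10, Zap70, Eomes and Cd14 among the other genes. The 15 alternatives per comparison left out single arrays, blocked on the replicate number, recentred or quantile-normalized the arrays, tested every probe set, averaged a gene's probe sets, left out the dimmest 50% of genes, changed the variance trend, or used only the 4 arrays compared.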

Additional observations from a re-analysis of the deposited data

How the results depend on the processing

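Over the 15 alternatives per comparison, the calls of the 43 genes stayed in the same direction. In DEC205 against PBS, 11 of the 16 calls passed under all of them, 5 were lost under some, and 3 other genes passed under some. In DCIR2 against PBS, 18 of the 29 calls passed under all of them, 11 were lost under some, and 4 other genes passed under some. Without single arrays the DEC205 count was 11 to 15 and the DCIR2 count 18 to 27, the lowest without DCIR2 array 2. Under the other settings the counts were 15 to 18 and 25 to 32. The count of 0 in DCIR2 against DEC205 and the counts of 0 lower genes held under all settings run. The median changes without single arrays were 0.38 to 0.60 in DEC205 against PBS, 0.77 to 0.96 in DCIR2 against PBS and 0.33 to 0.49 in DCIR2 against DEC205. Among the 60 other transport genes, the calls without single arrays numbered 8 to 15 in DEC205, with 7 to 14 higher and 1 to 4 lower, and 21 to 34 in DCIR2, with 18 to 29 higher and 3 to 5 lower. Removing an array leaves its group with 1, which is assumed to vary like the others. Equal replicate numbers deviated together at r = 0.145, 0.131 and 0.0714 in DEC205 with PBS, DCIR2 with PBS and DCIR2 with DEC205. With so few arrays, these values cannot tell whether samples of equal number share a mouse, day or batch. With the replicate block, 17 of the 43 genes passed in DEC205, 32 in DCIR2 and 0 in DCIR2 against DEC205. Median centring moved the median of all genes in DCIR2 against PBS to 0.06, against -0.05 as deposited, and the called genes to 2394 higher and 1173 lower, against 2008 and 1560. In DEC205 against PBS it gave 1186 higher and 498 lower, against 1060 and 703. The cause of these changes was not tested. Leaving out the dimmest 50% of genes left 41 of the 43. Kpna7 and Nup62cl, and other dim probe sets, are limited by signal over background.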
